A study of Mus musculus with 9 samples.

Results

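The genes of glucose breakdown and of the hypoxia-inducible factor (HIF) pathway were followed in regulatory T (Treg) cells that lacked CBP or p300. The list held 36 genes, from the glucose transporters through the glycolytic enzymes to the HIF subunits, their oxygen sensors and a set of HIF target genes. A gene was taken from the array where a probe set named it and no other gene, and the brightest probe set over the 9 arrays was read. This gave 31 of the 36 genes, out of 12393 genes tested in all. Of the other 5, Gapdh was named by control probe sets and is described apart, Bnip3l was named only together with a pseudogene, and Gpi1, Eno1 and Hif1an were not analysed here.

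The cells were CD4+CD25+ cells of C57Bl/6 mice, separated with magnets, with 3 arrays in each of 3 groups. The CBP-deleted group had the genotype fl-CBP/Foxp3cre and the p300-deleted group fl-p300/Foxp3cre. The control group is labelled Foxp3cre and titled WT. By its genotype label it shares the Cre allele with both knockouts, but its title does not name Cre. Whether the control cells carried Cre was not tested. If they did not, the comparisons with the control would also differ in the Cre allele. In this design Cre is driven by Foxp3, the Treg lineage gene, so a floxed gene is deleted only where Foxp3 is or was active, while CD25 is also carried by other activated T cells. Ages and treatments are not given in the sources used here.

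Glycolysis turns glucose into pyruvate in a chain of cytosolic enzymes, and lactate dehydrogenase then makes lactate, which leaves the cell through monocarboxylate transporters. HIF-1 is a pair of HIF-1 alpha (Hif1a) and ARNT; with oxygen present, prolyl hydroxylases mark HIF-1 alpha for VHL, which has it degraded, and without oxygen it accumulates and switches on glucose transporters and glycolytic enzymes. CBP and p300 are acetyltransferases that HIF-1 alpha recruits as coactivators, and CITED2 competes with it for the same site on them. In T cells glycolysis rises with activation and growth, whereas Treg cells are known to rely more on mitochondrial oxidation.

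The values are log2 expression per probe set, with array medians of 5.49 to 5.59. Over all probe sets, arrays correlated at 0.988 to 0.997 within groups and at 0.985 to 0.994 between groups. T cell genes were high in all groups: the CD3 chain gene Cd3e averaged 11.48 ± 0.14 (SD, n = 3) in the controls, 11.44 ± 0.0487 with CBP deleted and 11.65 ± 0.0793 with p300 deleted. Foxp3 has 1 probe set here, and it read 9.60 ± 0.14 in controls but 2.87 ± 0.12 and 2.95 ± 0.32 in the knockouts, at the dim end of the scale. Which part of the transcript it reads is not given in the sources used here. Foxp3 drives Cre in this design, and its reading split controls from knockouts although the labels give Cre to all 3 groups. What caused this was not tested. Several other genes of the 9-gene T and Treg cell list stayed bright: Ctla4 averaged 10.73 in controls, 11.28 with CBP deleted and 11.05 with p300 deleted, Tnfrsf18 11.31, 10.95 and 11.14, and Il2ra 9.05, 9.09 and 9.29. Ikzf2 of the same list was dimmer in every group, averaging 4.76, 5.34 and 5.35. Besides Foxp3, Ctla4 rose (0.56) and Gpr83 fell by 0.54 in CBP-deleted cells, and Cd4 rose (0.66) in p300-deleted cells. Crebbp, the gene of CBP, read 7.53 ± 0.16, 7.20 ± 0.13 and 7.56 ± 0.10. The deleted exons are not given, so its probe set may lie outside them and checks nothing. The p300 gene is not analysed here. The design text calls the 3 samples of a group independent but does not say whether each came from its own animal, so the p-values measure the spread between these samples.

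Of the 31 genes, 8 passed in at least 1 of the 3 comparisons and 23 in none, at a limma adjusted p under 0.05 over all genes. Between CBP-deleted and p300-deleted cells 6 were higher and 1 was lower (22.6% of the 31), where 5.20% of all genes passed, 3.20% higher and 2.01% lower. In CBP-deleted cells against the control 2 rose and 1 fell, where 4.93% of all genes passed, 2.14% higher and 2.79% lower. In p300-deleted cells 0 rose and 3 fell, where 4.06% passed, 2.02% higher and 2.04% lower. At an unadjusted p under 0.05 the same test gave 12 of the 31 genes in CBP-deleted cells, 12 in p300-deleted cells and 10 between the knockouts (38.7%, 38.7% and 32.3%), where 20.4%, 18.6% and 18.3% of all genes were under it. All 13 of these calls were small, between 1.27-fold and 1.97-fold. The median log2 fold change of the 31 genes against the control was -0.02 with CBP deleted and -0.16 with p300 deleted, beside -0.03 and -0.02 over all genes. Between the knockouts it was 0.02, beside -0.02. The arrays of CBP-deleted and p300-deleted cells did not overlap for 14 of the 31 genes, 11 of them higher in CBP-deleted cells, where 30.1% of all genes separated. Against the control the arrays did not overlap for 11 genes in CBP-deleted and for 9 in p300-deleted cells, where 24.4% and 20.3% of all genes separated. Leaving out control replicate 3 raised the count in CBP-deleted cells from 3 to 9, and leaving out control replicate 1 or any CBP-deleted array lowered it to 1. In p300-deleted cells the count was 0 without p300-deleted replicate 2 and 1 without control replicate 1. Between the knockouts it was 3 without replicate 2 of either knockout and 4 without replicate 3 of either. The share of all genes that passed in each of these fits was not counted, so a general gain or loss of calls is not separated here. Both knockouts were set against the same 3 controls, so the comparisons with the control are not independent of each other. These are bulk samples, in which fewer cells of a type and less RNA per cell cannot be told apart.

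**Figure D1:**
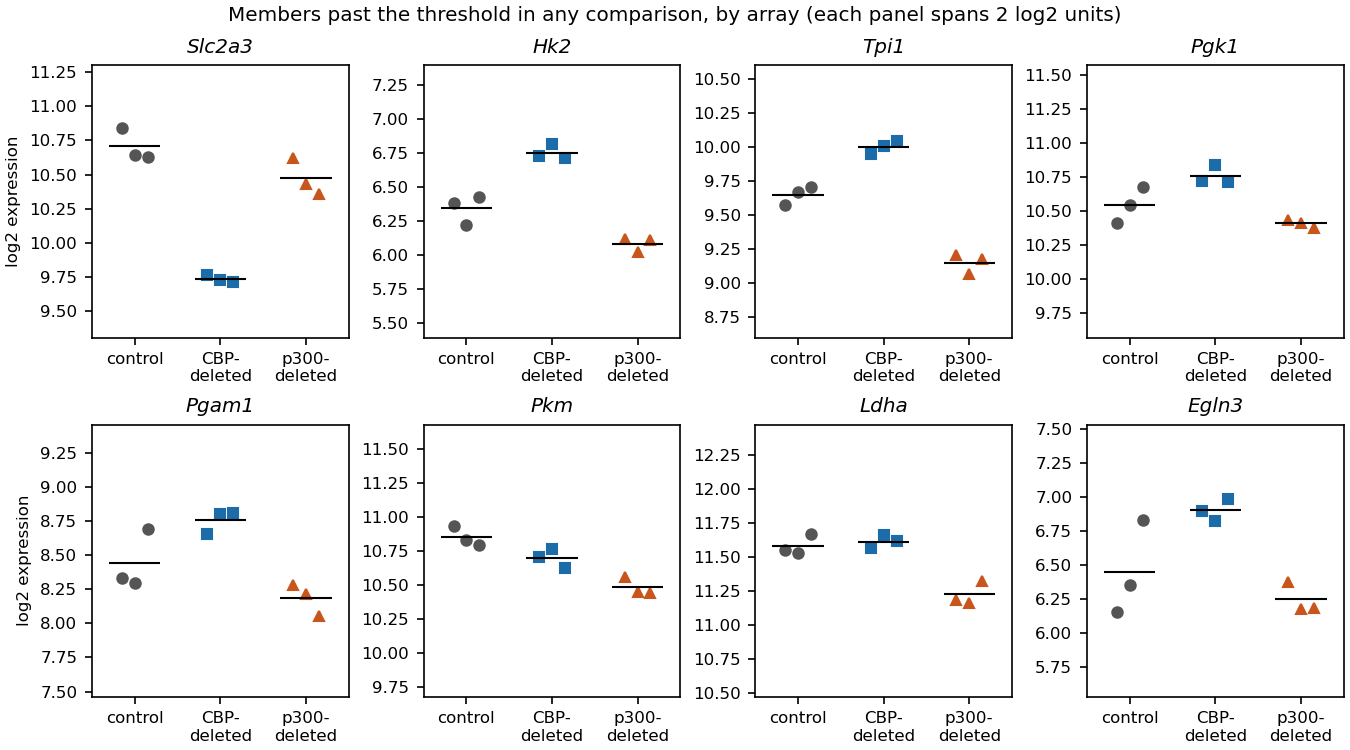
Log2 expression (vertical axis) of the 8 genes past the threshold in any comparison, with each point 1 array, each line the mean of 3 arrays, and every panel 2 log2 units high. Slc2a3 is lowest in the CBP-deleted arrays (9.71 to 9.76), and Tpi1 lies above the controls in CBP-deleted and below them in p300-deleted arrays.

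Glucose enters the cell through GLUT1 (Slc2a1) and GLUT3 (Slc2a3), the high-affinity transporter of neurons and lymphocytes. Slc2a3 read 10.85, 10.65 and 10.63 in controls, 9.76, 9.72 and 9.71 in the CBP-deleted and 10.62, 10.43 and 10.36 in the p300-deleted arrays. All 3 CBP-deleted arrays lay well below the other 6. Slc2a3 fell 1.97-fold in CBP-deleted cells (log2 fold change -0.98, SE 0.0894, adjusted p = 0.000502), the largest change among the 31 genes in any comparison. It was 1.67-fold lower in CBP-deleted than in p300-deleted cells (-0.74, adjusted p = 0.00169). Against the control the p300-deleted value was -0.24 and did not pass (adjusted p = 0.174, 95% interval -0.43 to -0.04). A second bright probe set of Slc2a3 gave -1.03 and -0.71 for the same 2 contrasts. That probe set is of the _x_at kind, which can read related transcripts as well. The other 2 probe sets of Slc2a3, at means of 2.29 to 2.87, were too dim to tell the groups apart. Both Slc2a3 calls were kept in all 20 alternatives tried.

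Slc2a1 read 8.63, 8.82 and 8.60 in controls, 8.33, 8.43 and 8.63 in the CBP-deleted and 8.27, 8.38 and 8.34 in the p300-deleted arrays. Its p300-deleted arrays were all below the controls, whereas the CBP-deleted arrays overlapped them. The log2 fold changes of -0.22 (adjusted p = 0.251) and -0.36 (adjusted p = 0.0763) did not pass. Without control replicate 3 the p300-deleted value passed (-0.40, adjusted p = 0.0495). The difference between the knockouts was 0.14, with a 95% interval of -0.08 to 0.36. All 3 probe sets of Slc2a1 had these signs.

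Hexokinases trap glucose in the cell as glucose 6-phosphate, and Hk2 is the inducible form. Hk2 read 6.39, 6.23 and 6.43 in controls, 6.73, 6.82 and 6.72 in the CBP-deleted and 6.12, 6.03 and 6.12 in the p300-deleted arrays. The 3 groups did not overlap, with the controls in the middle. Hk2 rose 1.33-fold in CBP-deleted cells (0.41, SE 0.10, adjusted p = 0.0448) and was 1.59-fold higher there than in p300-deleted cells (0.67, adjusted p = 0.00404). In p300-deleted cells it was -0.26 against the control (adjusted p = 0.192). The difference between the knockouts passed in all 20 alternatives. The rise against the control passed in 6 of them; by single arrays, it was lost without any but control replicate 3. Hk1, the constitutive form, read 8.93 to 9.17 over all 9 arrays and differed between the knockouts by -0.07 (95% interval -0.26 to 0.12).

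Triosephosphate isomerase (Tpi1) interconverts the products of the split sugar, and it gave the widest gap between the knockouts. It read 9.57, 9.67 and 9.71 in controls, 9.95, 10.01 and 10.04 in the CBP-deleted and 9.21, 9.06 and 9.18 in the p300-deleted arrays. The groups did not overlap, again with the controls in the middle. Tpi1 was 1.80-fold higher in CBP-deleted than in p300-deleted cells (0.85, SE 0.0777, adjusted p = 0.00108). It rose 1.27-fold in CBP-deleted cells (0.35, adjusted p = 0.0290) and fell 1.41-fold in p300-deleted cells (-0.50, adjusted p = 0.00819). It was the 1 gene of the list called in both knockouts against the control. All 3 of its probe sets had these signs, with differences between the knockouts of 0.75 to 0.94. The call between the knockouts was kept in all 20 alternatives. The rise in CBP-deleted cells passed in 12 of the 20, and was lost without any of the 3 CBP-deleted arrays or control replicate 1, with only the 2 groups compared, with no trend, with 18S fitted and with replicate numbers fitted. The fall passed in 19 and was lost without p300-deleted replicate 2 (adjusted p = 0.0539).

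The steps below the triose phosphates are catalysed by Gapdh, phosphoglycerate kinase (Pgk1), which makes ATP, and phosphoglycerate mutase (Pgam1). Pgam1 read 8.34, 8.29 and 8.70 in controls, 8.66, 8.80 and 8.81 in the CBP-deleted and 8.28, 8.22 and 8.06 in the p300-deleted arrays. It was 1.48-fold higher in CBP-deleted than in p300-deleted cells (0.57, SE 0.12, adjusted p = 0.0152). Control replicate 3 lay among the CBP-deleted arrays, and neither knockout passed against the control (0.31 and -0.26). Pgk1 read 10.41, 10.54 and 10.68 in controls, 10.73, 10.84 and 10.72 in the CBP-deleted and 10.44, 10.42 and 10.38 in the p300-deleted arrays. It was 1.28-fold higher in CBP-deleted than in p300-deleted cells (0.35, SE 0.0811, adjusted p = 0.0277), with 0.22 and -0.13 against the control. Its 3 probe sets gave 0.28 to 0.35 between the knockouts. Of the 20 alternatives, the Pgam1 call passed in 16 and the Pgk1 call in 12. By single arrays, the Pgam1 call was lost without CBP-deleted replicate 2 or 3 or p300-deleted replicate 2 or 3, and the Pgk1 call without any single knockout array. Without control replicate 3, Pgam1 (0.44) and Pgk1 (0.28) passed in CBP-deleted cells against the control.

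Gapdh, which oxidises glyceraldehyde 3-phosphate, was read by 3 control probe sets along its transcript. The one for the 3' part read 12.39, 12.30 and 12.41 in controls, 12.34, 12.43 and 12.37 in the CBP-deleted and 12.15, 12.02 and 12.18 in the p300-deleted arrays. For this part all p300-deleted arrays were below the other 6, while for the middle and the 5' part they overlapped the controls. Against the control the p300-deleted values were -0.25, -0.13 and -0.01 for the 3' part, the middle and the 5' part. None of these passed limma with every probe set tested on its own. In a fit of every probe set on its own, in which 3.35% of 22629 probe sets passed between the knockouts, the knockouts differed by 0.26 for the 3' part (adjusted p = 0.0487), by 0.31 for the middle (adjusted p = 0.0623) and by 0.39 for the 5' part (adjusted p = 0.136). The 3' reading exceeded the 5' reading by 0.20 to 0.60 in controls, by -0.15 to 0.11 in CBP-deleted and by 0.06 to 0.17 in p300-deleted arrays. For beta-actin the same difference was 0.28 to 0.44, 0.28 to 0.47 and 0.29 to 0.41, so the 3 groups overlapped. The part of these differences in the readings was not tested.

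Pyruvate kinase (Pkm) ends the chain, and lactate dehydrogenase A (Ldha) makes lactate from its product. Ldha read 11.55, 11.53 and 11.67 in controls, 11.57, 11.66 and 11.62 in the CBP-deleted and 11.19, 11.16 and 11.33 in the p300-deleted arrays. The p300-deleted arrays were below all others, and the CBP-deleted arrays lay among the controls. Ldha fell 1.28-fold in p300-deleted cells (-0.36, SE 0.0727, adjusted p = 0.0221) and was 1.31-fold higher in CBP-deleted than in p300-deleted cells (0.39, adjusted p = 0.0100). In CBP-deleted cells it differed from the control by 0.03 (95% interval -0.13 to 0.19). Pkm read 10.93, 10.83 and 10.79 in controls, 10.71, 10.76 and 10.62 in the CBP-deleted and 10.56, 10.44 and 10.44 in the p300-deleted arrays. Pkm fell 1.29-fold in p300-deleted cells (-0.37, SE 0.0748, adjusted p = 0.0214). Both knockouts lay below the controls for Pkm, and neither the -0.15 in CBP-deleted cells (adjusted p = 0.272) nor the 0.22 between the knockouts (adjusted p = 0.132) passed. Of the 20 alternatives, the falls of Ldha and Pkm each passed in 14 and the Ldha difference between the knockouts in 18. By single arrays, the fall of Ldha was lost without p300-deleted replicate 1 or 2 or control replicate 1, and that of Pkm without p300-deleted replicate 2 or 3 or control replicate 1. The Ldha difference between the knockouts was lost without CBP-deleted replicate 2 or p300-deleted replicate 2.

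The other enzymes sit in the upper part of the chain, where phosphofructokinase (Pfkl, Pfkp, Pfkm) commits the sugar to glycolysis and aldolase (Aldoa, Aldoc) splits it. None of these 5 passed in any comparison. Pfkp, the platelet-type subunit, read 8.82 to 9.19 over the 9 arrays and Pfkl, the liver-type subunit, 8.09 to 8.31. Aldoa, the main aldolase of most tissues, was -0.26 in CBP-deleted cells (adjusted p = 0.0936), with all 3 arrays below the controls and all 4 probe sets negative. It passed without control replicate 3 (-0.30, adjusted p = 0.0423). All 4 Aldoa probe sets are of the _x_at kind, which can read related transcripts as well. Of the 12 enzymes tested, 5 (Hk2, Tpi1, Pgk1, Pgam1 and Ldha) had their highest mean in CBP-deleted cells and their lowest in p300-deleted cells, and these were the same 5 that were higher in CBP-deleted than in p300-deleted cells. A wide gap between the knockouts makes this order likelier, and the share of all genes with it was not counted.

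**Figure D2:**
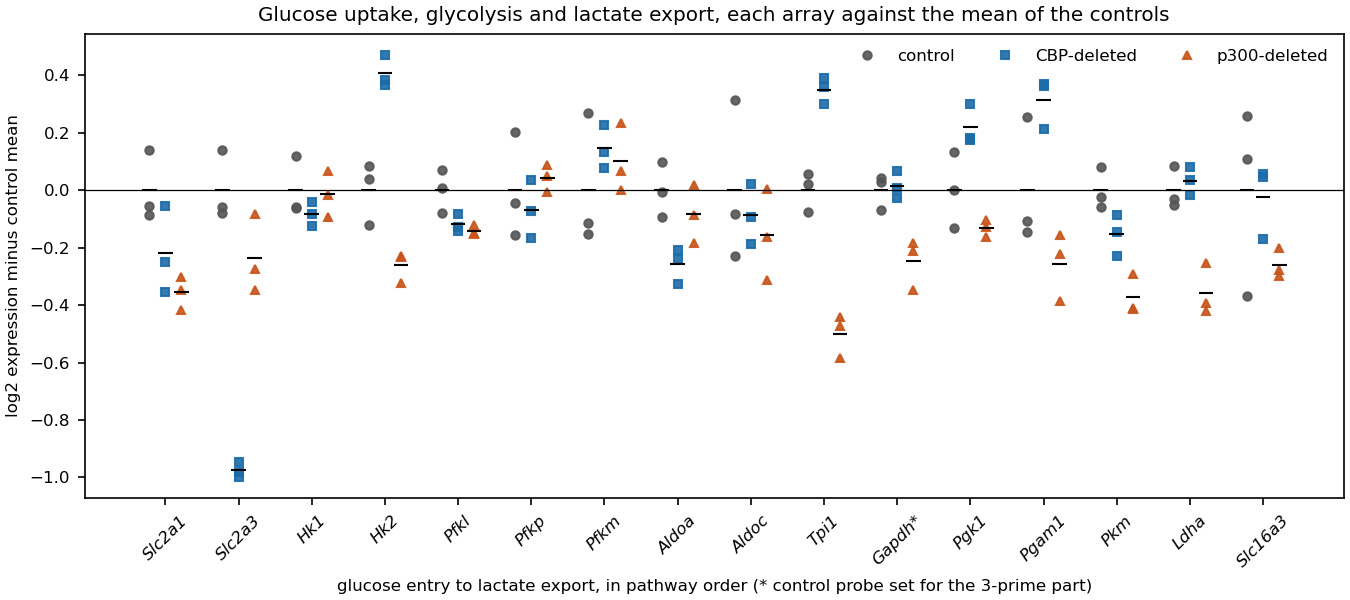
Log2 expression of each array minus the mean of the 3 controls (vertical axis), for 16 genes in pathway order, with a point for each array and a line for each group mean. The gap between CBP-deleted and p300-deleted arrays is 0.85 for Tpi1, and Slc2a3 stands alone with CBP-deleted arrays near -0.98.

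Lactate leaves through MCT4 (Slc16a3), and 2 switches set the flux: PFKFB3, which makes an activator of phosphofructokinase, and PDK1, which blocks the entry of pyruvate into mitochondria. Pdk1 read 8.94, 9.06 and 8.73 in controls, 8.57, 8.71 and 8.39 in the CBP-deleted and 8.69, 8.61 and 8.90 in the p300-deleted arrays. Its CBP-deleted arrays were all below the controls, and the log2 fold changes of -0.36 (adjusted p = 0.110) and -0.18 (adjusted p = 0.474) did not pass. Without control replicate 3 the first of them did (-0.45, adjusted p = 0.0362). Pfkfb3 had the widest spread within groups of the 31 genes (SD 0.36). Its controls read 6.41, 6.08 and 7.25, against 6.57 to 6.69 in CBP-deleted and 6.24 to 6.43 in p300-deleted arrays, so the controls spanned both knockouts. Slc16a3 read 3.90 to 4.52 over all arrays, a level that 33.1% to 40.4% of probe sets lay below, and did not pass in any comparison.

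The HIF subunits differed little between groups. Hif1a read 10.63, 10.37 and 10.72 in controls, 10.67, 10.68 and 10.69 in the CBP-deleted and 10.71, 10.70 and 10.65 in the p300-deleted arrays. All 6 knockout arrays lay within the range of the controls. The differences from the control were 0.11 in each knockout (95% intervals -0.09 to 0.30 and -0.08 to 0.31), and the knockouts differed by -0.01 (-0.20 to 0.19). Arnt, the partner that HIF-1 alpha needs to bind DNA, was read dimly, at 4.81, 4.78 and 4.63 in controls, 4.68, 4.57 and 4.92 in the CBP-deleted and 4.77, 4.98 and 4.71 in the p300-deleted arrays. Its groups overlapped, with differences from the control of -0.02 (95% interval -0.30 to 0.27) and 0.08 (-0.21 to 0.36). The 4 probe sets of Hif1a did not share a sign between the knockouts, and none passed. HIF-1 alpha is regulated mostly as a protein, which these arrays do not measure.

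Of the oxygen sensors, Egln3 (the prolyl hydroxylase PHD3, itself a HIF target) was the 1 called gene. It read 6.16, 6.35 and 6.83 in controls, 6.89, 6.83 and 6.98 in the CBP-deleted and 6.38, 6.18 and 6.19 in the p300-deleted arrays. The knockouts did not overlap, and control replicate 3 lay at the lower edge of the CBP-deleted arrays. Egln3 was 1.57-fold higher in CBP-deleted than in p300-deleted cells (0.65, SE 0.16, adjusted p = 0.0314), with 0.45 (adjusted p = 0.119) and -0.20 (adjusted p = 0.559) against the control. This call passed in 13 of the 20 alternatives and was lost without any single knockout array, and in the fit of every probe set on its own (adjusted p = 0.0507). In that limma fit a second Egln3 probe set gave 0.42 between the knockouts (adjusted p = 0.103). It gave 0.15 in CBP-deleted cells against the control (adjusted p = 0.562). Without control replicate 3, Egln3 passed in CBP-deleted cells against the control (0.65, adjusted p = 0.00739). Egln1, the main oxygen sensor PHD2, read 8.53 to 8.75 over all 9 arrays. Its differences from the control were -0.02 (95% interval -0.21 to 0.17) and 0.05 (-0.14 to 0.24). A dimmer second probe set of Egln1 gave -0.34 and -0.37 (limma adjusted p = 0.200 and 0.183 in the fit of every probe set). There the CBP-deleted arrays lay below all controls. Vhl, which targets hydroxylated HIF-1 alpha for degradation, read 4.41, 4.22 and 4.68 in controls, 4.34, 4.10 and 4.26 in the CBP-deleted and 4.44, 4.36 and 4.06 in the p300-deleted arrays, with the groups overlapping.

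None of the 9 measured genes that the list places under HIF targets passed limma in any comparison. Egln3, placed with the oxygen sensors, and Adm, of a second list, are also HIF targets, did pass and are described apart. Of the 9 genes 4, 5 and 2 had an unadjusted p under 0.05 in CBP-deleted cells, in p300-deleted cells and between the knockouts, where 20.4%, 18.6% and 18.3% of all genes did. Cited2, the competitor of HIF-1 alpha for CBP and p300, came nearest against the control. It read 9.56, 9.56 and 9.55 in controls, 9.13, 9.28 and 9.36 in the CBP-deleted and 9.39, 9.24 and 9.35 in the p300-deleted arrays, so all 6 knockout arrays lay below all controls. Its log2 fold changes were -0.30 in CBP-deleted cells (SE 0.0840, adjusted p = 0.0627) and -0.23 in p300-deleted cells (adjusted p = 0.155). The CBP-deleted value passed with the mean of its 2 probe sets (-0.31, adjusted p = 0.0420) and with dim genes left out (-0.30, adjusted p = 0.0460).

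The remaining targets went in different directions. Bnip3, a mitochondrial protein of mitophagy, was 0.49 higher in CBP-deleted (adjusted p = 0.0992) and 0.39 higher in p300-deleted cells (adjusted p = 0.199). Its controls read 6.51, 7.12 and 6.58, and without control replicate 2 both values passed (0.68 and 0.58). Ddit4, an inhibitor of mTOR that is also induced by stress and glucocorticoids, read 10.39, 10.80 and 11.02 in p300-deleted arrays against 9.95 to 10.44 in controls and 10.11 to 10.39 in CBP-deleted arrays (0.51 in p300-deleted cells, adjusted p = 0.0989). That value passed without p300-deleted replicate 1 (0.69, adjusted p = 0.0397), as did its difference between the knockouts (-0.67, adjusted p = 0.0334). Higd1a, a mitochondrial protein, was 0.53 higher in CBP-deleted than in p300-deleted cells (adjusted p = 0.0686), without overlap, and passed without control replicate 2 or 3. Its other 2 probe sets gave -0.10 and -0.0029, and the mean of the 3 gave 0.15 (adjusted p = 0.619). P4ha1, a collagen prolyl hydroxylase, was -0.47 and -0.42 against the control (adjusted p = 0.145 and 0.207), the first of which passed without control replicate 3 (-0.63). Mxi1, an antagonist of Myc, and Bhlhe40, a transcriptional repressor, lay between -0.07 and 0.23 against the control.

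Vegfa, the angiogenic factor often used as a HIF readout, read 3.19, 3.24 and 3.16 in controls, 3.09, 3.19 and 3.05 in the CBP-deleted and 2.94, 3.19 and 3.18 in the p300-deleted arrays. Only 16.9% to 22.1% of probe sets lay below it, and P4ha2, at 2.75 to 3.12, was as low on the scale. A fall from so low a level may not be measurable.

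**Figure D3:**
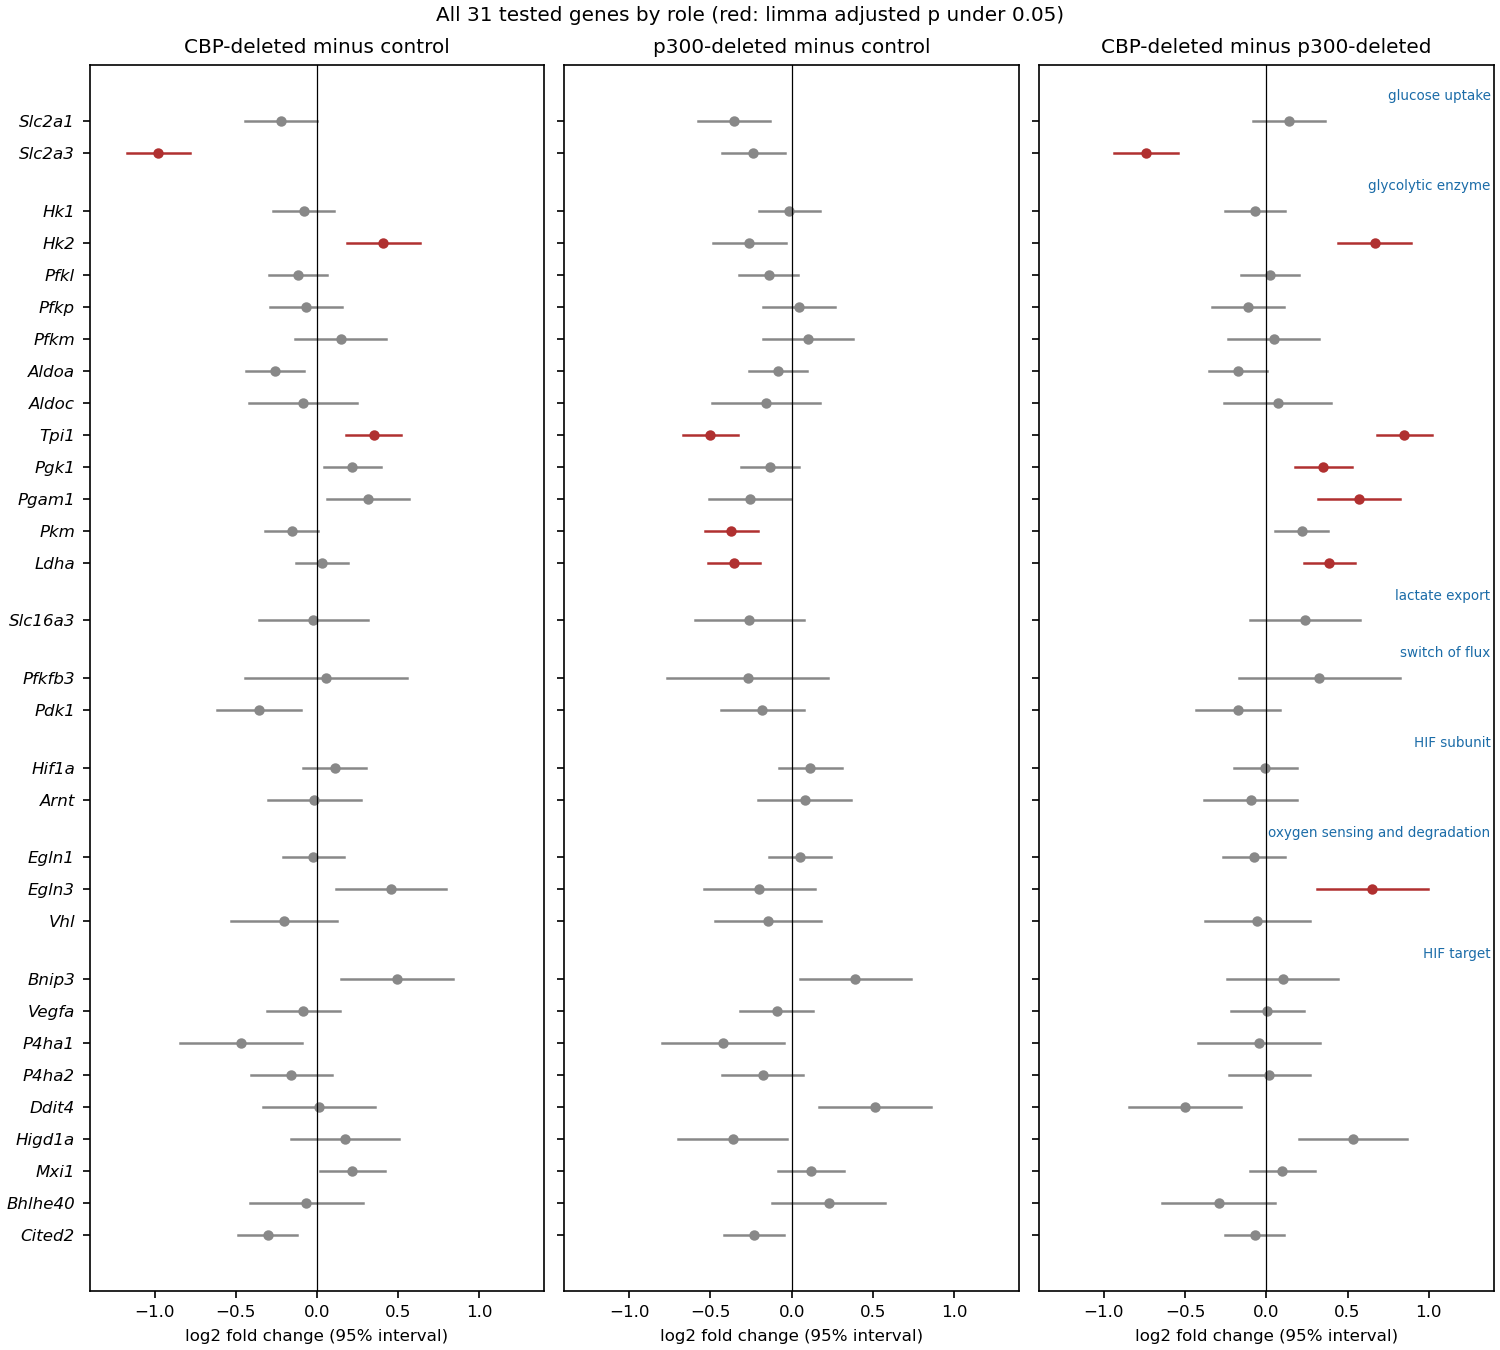
Log2 fold changes (horizontal axis) with 95% intervals from limma for the 31 genes by role in the 3 comparisons, with red for an adjusted p under 0.05. The 7 red intervals between the knockouts are 5 glycolytic enzymes and Egln3 on the CBP-deleted side and Slc2a3 on the p300-deleted side, and the 14 genes of the HIF subunits, sensors and targets hold 0 red intervals against the control.

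HIF-1 binds DNA at the letters ACGTG or GCGTG, and promoters of Ldha and Pgk1 are textbook examples. The promoters of the 6 genes that were higher in CBP-deleted than in p300-deleted cells are shown because these genes differed together and include such examples. Each is the 250 bases before the RefSeq start on GRCm38.p6, 5' to 3' on the gene's strand, with capitals for ACGTG and GCGTG on either strand (read as CACGT and CACGC on the other). Where the 2 strands' matches overlap, as in CACGTG, 1 stretch is marked. Where a gene had several starts, the window with most marked stretches is given.
Ldha (chr7:46845554-46845803, plus strand): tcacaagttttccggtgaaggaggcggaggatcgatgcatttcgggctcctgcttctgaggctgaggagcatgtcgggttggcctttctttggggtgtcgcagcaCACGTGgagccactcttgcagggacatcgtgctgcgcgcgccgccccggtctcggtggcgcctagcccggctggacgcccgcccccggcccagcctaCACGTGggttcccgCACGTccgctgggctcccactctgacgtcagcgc
Pgk1 (chrX:106186850-106187099, plus strand): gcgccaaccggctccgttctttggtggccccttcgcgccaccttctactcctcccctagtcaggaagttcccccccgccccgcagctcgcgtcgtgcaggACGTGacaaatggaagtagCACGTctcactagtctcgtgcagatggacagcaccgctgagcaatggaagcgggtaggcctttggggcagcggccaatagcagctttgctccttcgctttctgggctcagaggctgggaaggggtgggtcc
Pgam1 (chr19:41911621-41911870, plus strand): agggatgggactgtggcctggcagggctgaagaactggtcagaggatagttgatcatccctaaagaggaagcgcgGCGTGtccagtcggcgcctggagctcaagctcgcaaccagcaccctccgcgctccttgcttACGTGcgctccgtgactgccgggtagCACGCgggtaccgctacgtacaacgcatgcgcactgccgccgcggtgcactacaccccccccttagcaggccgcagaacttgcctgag
Hk2 (chr6:82774455-82774704, minus strand): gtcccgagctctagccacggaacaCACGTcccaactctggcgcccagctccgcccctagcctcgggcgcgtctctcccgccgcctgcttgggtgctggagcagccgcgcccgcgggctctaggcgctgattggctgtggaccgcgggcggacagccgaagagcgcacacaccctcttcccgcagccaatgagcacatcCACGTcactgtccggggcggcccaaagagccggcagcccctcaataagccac
Egln3 (chr12:54203875-54204124, minus strand): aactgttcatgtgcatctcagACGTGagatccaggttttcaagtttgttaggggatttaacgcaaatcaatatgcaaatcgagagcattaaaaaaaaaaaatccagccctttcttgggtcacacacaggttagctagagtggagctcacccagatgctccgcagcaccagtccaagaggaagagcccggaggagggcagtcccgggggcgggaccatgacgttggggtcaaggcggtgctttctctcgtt
Tpi1 (chr6:124814159-124814408, minus strand): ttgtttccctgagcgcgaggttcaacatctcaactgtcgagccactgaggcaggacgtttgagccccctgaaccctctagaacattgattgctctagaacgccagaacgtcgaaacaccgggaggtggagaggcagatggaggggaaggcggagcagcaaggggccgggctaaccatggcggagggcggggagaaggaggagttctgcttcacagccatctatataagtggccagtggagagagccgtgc
Ldha held 3 marked stretches, Pgam1 held 3, Pgk1 and Hk2 held 2 each, Egln3 held 1 and Tpi1 held 0 in this window. The gene with the largest difference between the knockouts was thus the 1 without a match here. At least 1 match was found in 38.6% of all 32851 windows of this length and in 34 of 43 windows of the list (79.1%). The list was built around glycolysis and the HIF pathway, so this contrast depends on how it was chosen and is no result of the arrays. Of the 31 genes, 29 had a window, while Slc2a3 and Bhlhe40 had none and were not searched. A match is a run of letters and no evidence of binding, and the genes outside the 6 held matches too, Vegfa and Bnip3 among them.

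A second list held 88 further genes of glucose metabolism and the HIF pathway, of which 73 were measured. Between the knockouts 8 were higher in CBP-deleted cells and 1 was lower. In CBP-deleted cells against the control 1 rose and 4 fell, and in p300-deleted cells 0 rose and 7 fell. Over all genes, 3.20% were higher and 2.01% lower between the knockouts, 2.14% and 2.79% in CBP-deleted cells, and 2.02% and 2.04% in p300-deleted cells. The median log2 fold changes of the 73 genes were 0.11, 0.01 and -0.07 in that order, beside -0.02, -0.03 and -0.02 over all genes.

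The 4 largest falls in p300-deleted cells were in Adm, Slc16a1, Tkt and Sap30. Slc16a1, the lactate transporter MCT1, read 8.49, 8.58 and 8.39 in controls, 8.29, 8.50 and 8.40 in the CBP-deleted and 7.67, 7.52 and 7.99 in the p300-deleted arrays. Its log2 value fell by 0.76 with p300 deleted (SE 0.12, adjusted p = 0.00904), while the CBP-deleted arrays lay close to the controls (-0.09). Tkt, transketolase of the pentose phosphate branch, fell by 0.52 (adjusted p = 0.00727), with p300-deleted arrays of 10.97 to 11.21 against 11.55 to 11.69 in the other 6. Sap30, a subunit of a histone deacetylase complex, fell by 0.49 (adjusted p = 0.0481). The genes with the lowest p among those higher than the control were P4hb, a disulphide isomerase (0.81, adjusted p = 0.0515), and Nampt (0.38, adjusted p = 0.0921), and neither passed. Between the knockouts Sap30 (0.71), Slc16a1 (0.67), Car12, a carbonic anhydrase (0.58), and Tkt (0.53) led the genes higher in CBP-deleted cells.

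In CBP-deleted cells Nampt, which makes NAD from nicotinamide, rose by 0.80 (SE 0.12, adjusted p = 0.00509), from 6.89 to 7.11 in controls to 7.77 to 7.87. Eno3, the muscle form of enolase, fell by 0.78 (SE 0.10, adjusted p = 0.00280) and was also lower than in p300-deleted cells (-0.63, adjusted p = 0.00459). Ndrg1, a stress-induced gene, fell by 0.62 and Rheb, an activator of mTOR, by 0.33. Adrenomedullin (Adm), a HIF target, fell in each knockout against the shared controls, by 0.84 (adjusted p = 0.0165) in CBP-deleted and by 0.95 (adjusted p = 0.0102) in p300-deleted cells. It read 4.93, 4.97 and 5.08 in controls, 4.50, 3.80 and 4.16 in the CBP-deleted and 4.01, 3.97 and 4.16 in the p300-deleted arrays, without overlap between knockouts and controls.

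Proliferation genes moved with the difference between the knockouts. All 9 that were measured, among them Birc5 and Aurkb of dividing cells, passed limma as higher in CBP-deleted than in p300-deleted cells. Their median was 1.34, and 3.20% of all genes passed as higher. The mean level of these 9 genes was 8.43 to 8.73 in CBP-deleted, 7.03 to 7.58 in p300-deleted and 7.74 to 8.85 in control arrays. In p300-deleted cells 5 of the 9 fell against the control (median -1.07), where 2.04% of all genes fell. In CBP-deleted cells 0 of the 9 passed limma against it (median 0.47), with 3 at an unadjusted p under 0.05, as 20.4% of all genes were. The mean of the 12 glycolytic enzymes relative to the controls was 0.03 to 0.10 in CBP-deleted and -0.21 to -0.16 in p300-deleted arrays. In control arrays it was -0.02 to 0.02. Control replicate 3 had the highest proliferation level of all arrays, 8.85. Its enzyme mean was -0.006, below the 0.024 of control replicate 1. For all 6 genes that were higher in CBP-deleted than in p300-deleted cells, control replicate 3 was the highest of the 3 controls. There Hk2 read 6.43, Tpi1 9.71, Pgk1 10.68, Pgam1 8.70, Ldha 11.67 and Egln3 6.83. Pgam1, Ldha and Egln3 reached above the lowest CBP-deleted array there, and the other 3 genes did not. The 6 genes were picked by their call in these data. The share of all genes highest in this control was not counted. The part of proliferation in any of these differences was not tested.

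**Figure D4:**
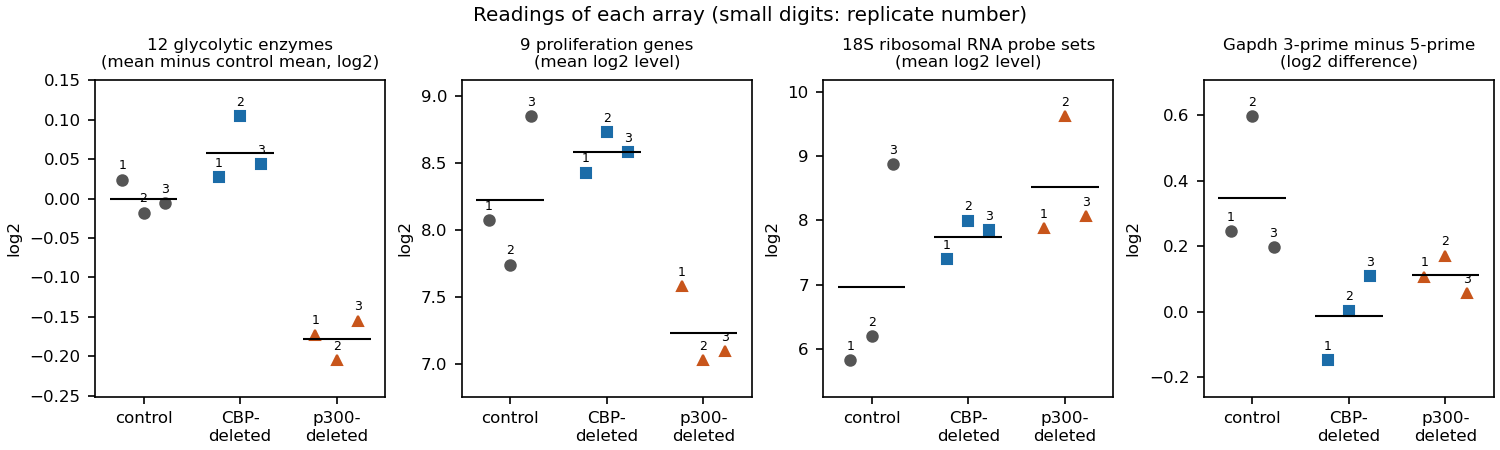
Readings of each array in log2 units (vertical axes) by group, with small digits for the replicate number and a line for each mean: the mean of the 12 glycolytic enzymes relative to the controls, the mean of 9 proliferation genes, the 18S ribosomal RNA probe sets and the 3' minus 5' reading of Gapdh. The enzyme means are 0.03 to 0.10 in CBP-deleted, -0.21 to -0.16 in p300-deleted and -0.02 to 0.02 in control arrays. The proliferation means are 8.43 to 8.73, 7.03 to 7.58 and 7.74 to 8.85 in that order.

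Markers of other cells also differed. Beside the marker counts given here, limma called 2.02% of all genes higher than the control with p300 deleted. With CBP deleted, limma called 2.14% of all genes higher than the control and 2.79% lower. Of 6 plasma cell markers 4 rose in p300-deleted cells, with a mean level of 8.64 to 9.05 against 8.08 to 8.16 in controls and 8.10 to 8.30 in CBP-deleted arrays. Of 7 mast cell and basophil markers 4 rose there too (5.68 to 6.39, against 4.92 to 5.03 in controls and 4.82 to 5.77 in CBP-deleted arrays), as did 2 of 12 myeloid and neutrophil markers (5.52 to 7.25, against 4.46 to 5.22 and 5.32 to 6.87). Of 7 B cell markers 4 fell in CBP-deleted cells. The mean level of the 7 was 6.95 to 7.41 there, against 7.72 to 7.91 in controls and 7.30 to 7.90 in p300-deleted arrays. Ighm was the 1 marker that rose in p300-deleted cells (0.33, limma adjusted p = 0.0167). It was also among the 4 that fell in CBP-deleted cells (-0.25, adjusted p = 0.0425). In controls the B cell genes Ighm, Cd79b, Ms4a1, Cd79a and Pax5 read 13.69, 8.06, 7.59, 7.07 and 3.41. The plasma cell genes Jchain, Xbp1 and Tnfrsf17 read 11.87, 10.49 and 4.14. The mast cell gene Cpa3 read 6.05 and Ms4a2 3.37, and the myeloid genes Lyz2, S100a8 and Itgam read 6.33, 6.30 and 2.89; levels of different probe sets are not comparable. Those that rose in p300-deleted cells were Cpa3, Mcpt8, Fcer1a and Cma1 in the mast cell and basophil list, and Camp and Ctsg in the myeloid list. Of 8 CD8 T and NK cell markers 2 rose in CBP-deleted cells and 1 in p300-deleted cells, and of 3 erythroid markers 1 fell in CBP-deleted cells. The 18S probe sets averaged 7.75 ± 0.32 (SD, n = 3) in CBP-deleted, 8.52 ± 0.96 in p300-deleted and 6.97 ± 1.66 in control arrays, highest in p300-deleted replicate 2 and control replicate 3. Without those 2 arrays the counts were 7 genes of the list against 3 in CBP-deleted cells, 1 against 3 in p300-deleted cells, and 8 against 7 between the knockouts. The share of all genes that passed in that fit was not counted. The part of these cells and readings in the values above was not tested.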

How the data were processed

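RNA of 9 samples was labelled with biotin from 100 ng of total RNA and read on 1 Affymetrix 3' array each. The deposited values are log2 expression per probe set, made by the authors with RMA per the submitters' processing notes, with no version stated. They were used as deposited. Of 22690 probe sets, 64 controls were set aside, and of the other 22626, 20380 carry 1 gene symbol in the platform annotation, 691 several and 1555 none. Symbols were checked against the RefSeq table of GRCm38.p6 through gene identifiers (24 unmatched, 0 changed). Each of 12393 genes was read by its brightest probe set.

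The test was limma 3.58.1 in R 4.3.3: all 9 arrays, 1 mean per group, 6 residual degrees of freedom, moderation with a trend, two-sided, with Benjamini-Hochberg adjustment over all genes at 0.05. Standard errors and 95% intervals are those of the fit, and SDs are over 3 arrays. With 3 arrays a side, exact permutation p-values stop at 0.1, so none were used. For arrays the number of samples limits the precision. The procedure was tested on simulated data. The members and lists were chosen with earlier results of these data known. Named genes were all members and, from the second list, up to 4 genes per comparison and direction past the threshold with the largest change, else up to 2 with the lowest p. Alternatives covered the probe set, dim genes, scaling, groups in the fit, moderation, covariates and each array left out.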

Additional observations from a re-analysis of the deposited data

How the results depend on the processing

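In all, 20 alternatives were run, of which the fit of every probe set on its own and the removal of control replicate 3 together with p300-deleted replicate 2 were added after seeing the data. No called value changed sign. The calls of Slc2a3 in CBP-deleted cells, and of Slc2a3, Hk2 and Tpi1 between the knockouts, were kept in all of them. In CBP-deleted cells against the control, the count of 3 genes became 1 with only the 2 groups compared, 1 after fitting the 18S reading, 1 to 9 with single arrays left out, and 7 without the 2 arrays. In p300-deleted cells the count of 3 became 1 with only the 2 groups compared, 0 to 4 with single arrays left out, and 1 without the 2 arrays. Between the knockouts the count of 7 was 3 to 8 with single arrays left out. For none of the alternatives was the share of all genes that passed counted. The median in CBP-deleted cells, -0.02, became 0.014 without dim genes, -0.078 to -0.0034 with single arrays left out and -0.078 without the 2 arrays. That in p300-deleted cells, -0.16, became -0.19 with array medians subtracted and -0.11 after fitting the 18S reading, and -0.17 to -0.13 with single arrays left out. Between the knockouts the median of 0.02 was 0.013 to 0.064 with single arrays left out. The causes were not tested.

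Replicate numbers did not pair the samples: deviations of same-numbered arrays correlated at 0.27, -0.06 and 0.03 for CBP-deleted and control arrays, and at -0.07, 0.10 and -0.12 for p300-deleted and control arrays. With the number as a replicate block the counts were 1, 3 and 6 in place of 3, 3 and 7. With 3 arrays a group, the number of arrays limits the precision, and genes near the dim end of the scale, such as Vegfa and P4ha2, have little signal over background.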
